A study of Mus musculus with 2 samples.

Results

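Ion channel genes were examined in RNA sequencing of the pleuroperitoneal folds (PPFs), the paired embryonic folds that give rise to the connective tissue of the diaphragm. Members were chosen by gene symbol alone: the potassium channel names that begin with Kcn, the calcium channel pore genes Cacna1a to Cacna1i with the alpha2delta genes Cacna2d1 to Cacna2d4, and the sodium channel names Scn followed by a number and a or b. Of 119 symbols that matched, Cacna1s and Kcnq1 were left out by the rule, which leaves 117 of 38926 listed genes. The rule itself uses no measured value. The series holds 1 group of 2 libraries, replicates 1 and 2, from wild type mouse embryos of the mixed strain 129s/SvlmJ-C57/BL6J at embryonic day 12.5. Each library pooled 2 dissected fold pairs, so values of single embryos are not resolved, and all values describe this 1 kind of sample.

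Ion channels are membrane proteins that let selected ions cross the cell membrane through a pore. Voltage-gated channels open when the membrane potential changes: sodium channels start the action potential, calcium channels couple it to contraction, secretion and transcription, and potassium channels end it and set the resting potential. Developing muscle cells, neurons and several mesenchymal cell types use them, and most pore subunits work with accessory subunits that set trafficking and gating. The shared name Kcn covers more than voltage-gated channels. Inward rectifiers (Kcnj) and two-pore-domain background channels (Kcnk) lack a voltage sensor. The Kcnn channels, grouped here under the class name small-conductance, are opened by calcium through calmodulin.

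The coding sequences of the members show this division. Every potassium channel pore carries a selectivity filter, the stretch that lets potassium through and holds sodium back, with a glycine, an aromatic residue or leucine, and a glycine in a row. The next 6 lines give this stretch from the mouse reference for 5 members that are among the highest of their families, with the 3 filter codons in capitals.
Kcna6: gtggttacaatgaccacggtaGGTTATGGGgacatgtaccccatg
Kcnh2: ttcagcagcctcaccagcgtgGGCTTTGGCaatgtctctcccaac
Kcnj2: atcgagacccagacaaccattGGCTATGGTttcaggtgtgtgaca
Kcnj8: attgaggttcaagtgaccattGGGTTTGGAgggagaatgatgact
Kcnk1, first filter: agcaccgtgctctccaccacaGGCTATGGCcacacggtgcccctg
Kcnk1, second filter: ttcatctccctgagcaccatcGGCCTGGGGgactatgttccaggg
The genome positions (GRCm38, from the GENCODE M21 annotation) are chr6:126738632-126738676 on the minus strand for Kcna6 and chr5:24325540-24325584 (minus) for Kcnh2. They are chr11:111072192-111072236 (plus) for Kcnj2, chr6:142566433-142566477 (minus) for Kcnj8 and chr8:126025314-126025358 (plus) for the second Kcnk1 filter. The first Kcnk1 stretch is joined across an intron, from chr8:125995793 to 126025034. All lie in coding exons. A search for a serine or threonine codon, a valine, isoleucine, threonine or leucine codon, and the 3 filter codons found a match in 76 of the 117 members, and in 1.58% of 21877 mouse coding sequences. The 76 were all members of the potassium pore families, including the 4 Slo pore genes Kcnma1, Kcnt1, Kcnt2 and Kcnu1. None of the Kv accessory genes or Kcnmb beta genes had a match.

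The voltage sensor leaves a different mark, a membrane segment (S4) in which a positively charged residue, arginine or lysine, recurs at a step of 3 codons. The next 6 lines give S4-like runs of the highest member, Cacna1g, whose single protein holds 4 repeated domains, beside those of Kcna6 and Kcnh2, whose pores assemble from separate subunits. Arginine and lysine codons of the run are in capitals.
Cacna1g, run 1: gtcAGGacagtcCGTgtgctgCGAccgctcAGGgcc
Cacna1g, run 2: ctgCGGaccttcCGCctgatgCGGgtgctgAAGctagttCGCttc
Cacna1g, run 3: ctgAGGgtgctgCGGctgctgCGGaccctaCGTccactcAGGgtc
Cacna1g, run 4: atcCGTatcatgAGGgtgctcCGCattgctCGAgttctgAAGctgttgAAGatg
Kcna6: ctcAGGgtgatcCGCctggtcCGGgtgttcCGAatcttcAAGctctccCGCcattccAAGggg
Kcnh2: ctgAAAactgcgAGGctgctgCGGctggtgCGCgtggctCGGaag
The first 2 Cacna1g runs lie at chr11:94465415-94465450 and chr11:94443273-94443317 on the minus strand, and runs 3 and 4 are joined across introns, from chr11:94429173 to 94430135 and from chr11:94416892 to 94417188. The Kcna6 and Kcnh2 runs lie at chr6:126738842-126738904 and chr5:24325825-24325869, both minus. A run was counted where at least 4 arginine or lysine codons stood at that step with no charged codon between them. Such runs were found in 50 of the 117 members (42.7%) and in 2.39% of all coding sequences. They stood in 25 of 29 Kv pore genes, in 6 of 10 silent Kv genes and in 9 of 9 calcium and 9 of 9 sodium channel pore genes. Of those, all 9 calcium genes and 8 sodium genes had at least 4 runs, and Scn7a had 2. None of the 15 inward rectifiers, 14 two-pore-domain genes, 4 small-conductance genes or 19 accessory genes of the Kv, alpha2delta and sodium beta classes had one, and of the 8 large-conductance genes only Kcnu1 did. A missing match says only that this pattern is not in the coding sequence used. The 117 members are therefore called channel genes here, not voltage-gated channel genes.

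The libraries held 26370253 and 23255957 counts, of which the channel genes took 0.113% and 0.117%. Levels are given in TPM, in which each count is divided by the length of its gene and all genes of a library add up to 1000000, so levels of different genes can be set side by side. Values are mean ± SD with n = 2. Mesothelial markers (5 of 5 at 1 TPM or more in both libraries, summed level 416 and 450 TPM), skeletal muscle markers (10 of 10, 2021 and 2047 TPM) and Schwann precursor markers (7 of 7, 216 and 245 TPM) were present. Erythroid (5 of 5, 4993 and 4639 TPM) and smooth muscle markers (5 of 5, 1193 and 1178 TPM) were present too. So were macrophage markers (6 of 6, 430 and 386 TPM) and endothelial markers (6 of 6, 203 and 237 TPM). Cardiac muscle markers were expressed in 3 of 6 cases (87.3 and 114 TPM). More than 1.5 times as high in replicate 2 in sum were neuronal markers (10 of 12, 73.1 and 118 TPM). The same held for hepatoblast markers (6 of 8, 118 and 307 TPM) and sympathetic and crest markers (3 of 6, 28.6 and 43.2 TPM). Nephric and gonad markers (3 of 7, 54.1 and 27.5 TPM) were lower. In RNA from whole tissue, fewer cells of a type and less RNA per cell cannot be told apart.

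Channel genes were mostly low, with a few far above the rest. At 1 TPM or more in both libraries stood 59 of 117 (50.4%), against 63.0% of the protein-coding genes, and at 10 TPM or more stood 10 (8.55%), against 46.0%. The median over all 117 was 1.11 TPM, against 7.35 TPM over 20719 protein-coding genes. Below 1 TPM in both libraries were 53 members, and 5 passed in 1 library only. The 3 highest, Cacna1g, Cacna2d1 and Cacna1h, held 36.4% and 37.3% of the summed channel TPM of 532 and 555. Between the libraries the expressed members had a median coefficient of variation of 10%, against 5.10% for expressed protein-coding genes, which have more counts. Among the expressed genes with 45.5 to 422.5 counts over both libraries, the middle range of the members tested, the median was 13.8% for channel genes and 10.4% for protein-coding genes.

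**Figure D1:**
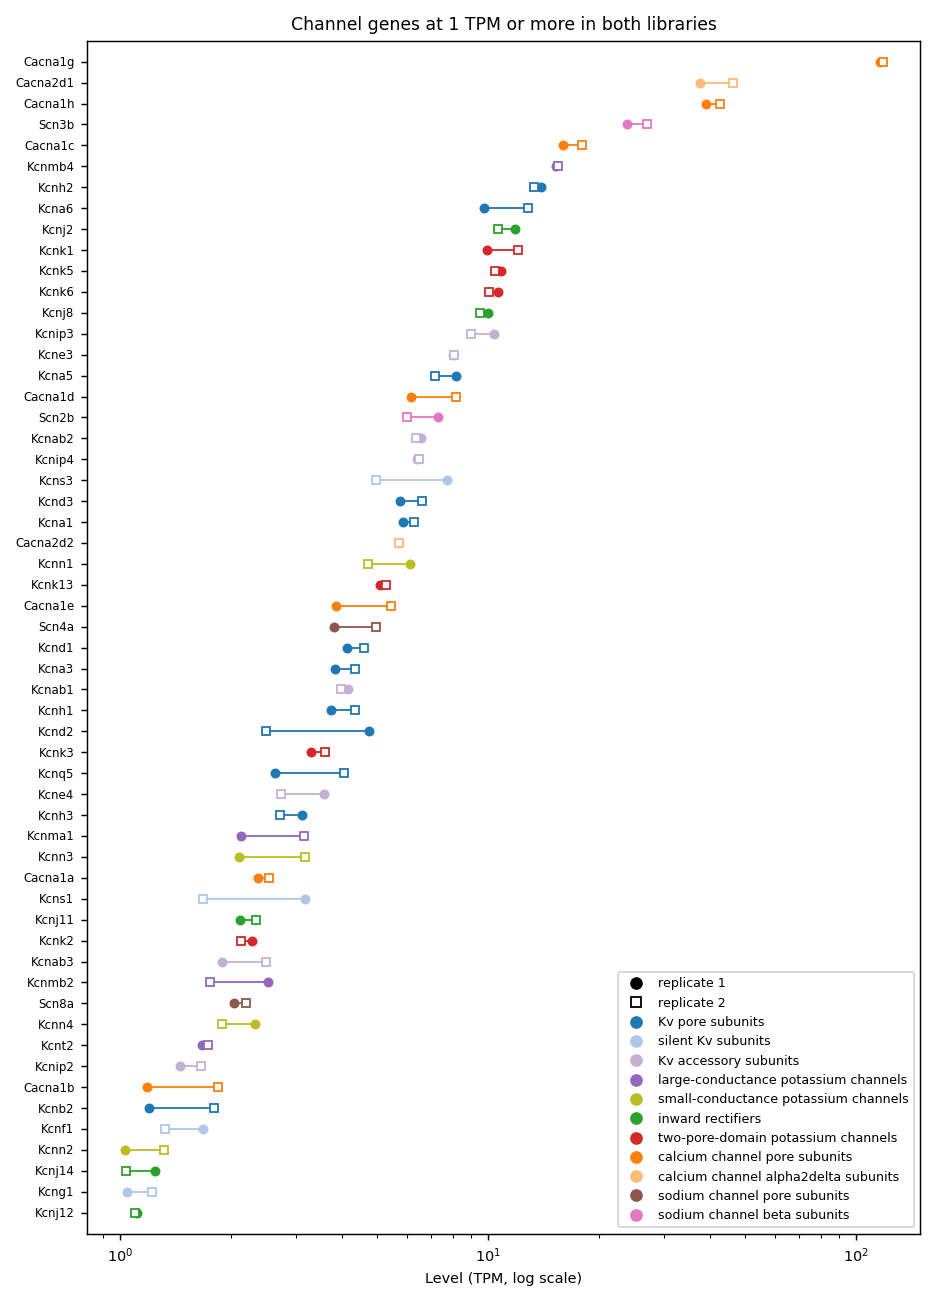
Level in TPM (log axis) of 56 of the 59 channel genes at 1 TPM or more in both libraries, with filled circles for replicate 1, open squares for replicate 2, and colour for the class. Cacna1g stands alone above 100 TPM, and most of the others lie between 1 and 10 TPM.

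The calcium channel pore genes reached the highest levels of all classes, and the T-type genes led them. T-type channels open at small depolarisations and carry calcium near the resting potential. Cacna1g, the Cav3.1 gene (chromosome 11, 94408391 to 94474100 in the deposited coordinates), stood at 116 TPM in replicate 1 and 118 TPM in replicate 2. Cacna1h, the Cav3.2 gene (chromosome 17, 25374285 to 25433783), stood at 39.2 and 42.7 TPM, so Cacna1g was 2.97 and 2.76 times as high. The third T-type gene, Cacna1i, stood at 0.239 and 0.349 TPM. The T-type genes therefore ranged from the highest member to below 1 TPM.

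L-type genes, whose channels need a strong depolarisation and drive contraction in heart and smooth muscle, came next. Cacna1c, the Cav1.2 gene (chromosome 6, 118592319 to 118780324), stood at 15.9 and 18.0 TPM and Cacna1d, the Cav1.3 gene, at 6.16 and 8.20 TPM. The retinal L-type gene Cacna1f had 4 and 2 counts. Cacna1e, Cacna1a and Cacna1b, whose R-, P/Q- and N-type channels act at nerve terminals, stood at 4.66 ± 1.12, 2.46 ± 0.119 and 1.51 ± 0.463 TPM. In both libraries the 7 expressed pore genes kept the same order, from Cacna1g through Cacna1h, Cacna1c, Cacna1d, Cacna1e and Cacna1a to Cacna1b. The level of Cacna1c rests on 8372 bases of the deposited gene model, whereas its exons in GENCODE M21 cover 21191 bases.

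The alpha2delta genes encode extracellular subunits that bring calcium channels to the membrane. Cacna2d1 (chromosome 5, 15934691 to 16374511) stood at 37.7 and 46.4 TPM, a range that takes in both values of Cacna1h, so these genes were not separated beyond their spread. Cacna2d2 followed at 5.72 and 5.73 TPM. Cacna2d3 (0.777 ± 0.256 TPM) and Cacna2d4 (1 count in replicate 1, 0 in replicate 2) were below 1 TPM.

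Other partners of calcium channels, which the symbol rule does not take in, spanned a like range. Of the cytoplasmic beta genes, Cacnb3 stood at 128 and 121 TPM and Cacnb1, the skeletal muscle form, at 27.7 and 28.9 TPM, while Cacnb2 and Cacnb4 stood at 2.18 ± 0.0486 and 1.90 ± 0.0967 TPM. Genes of the skeletal muscle calcium channel complex were present: Cacng1 at 12.7 ± 0.196 TPM, its relative Cacng6 at 16.1 ± 3.34 TPM and the adaptor gene Stac3 at 33.1 ± 0.836 TPM. Among the other gamma genes, Cacng7 stood at 56.8 ± 6.19 TPM, Cacng4 at 27.8 ± 1.89 TPM and Cacng8 at 2.91 ± 0.0613 TPM. The calcium channel inhibitor genes Rrad, Gem and Rem1 stood at 22.7 ± 0.142, 6.38 ± 2.45 and 5.09 ± 1.10 TPM, and the adaptor gene Stac2 at 15.9 ± 4.13 TPM. Its relative Stac stood at 2.41 and 2.60 TPM.

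**Figure D2:**
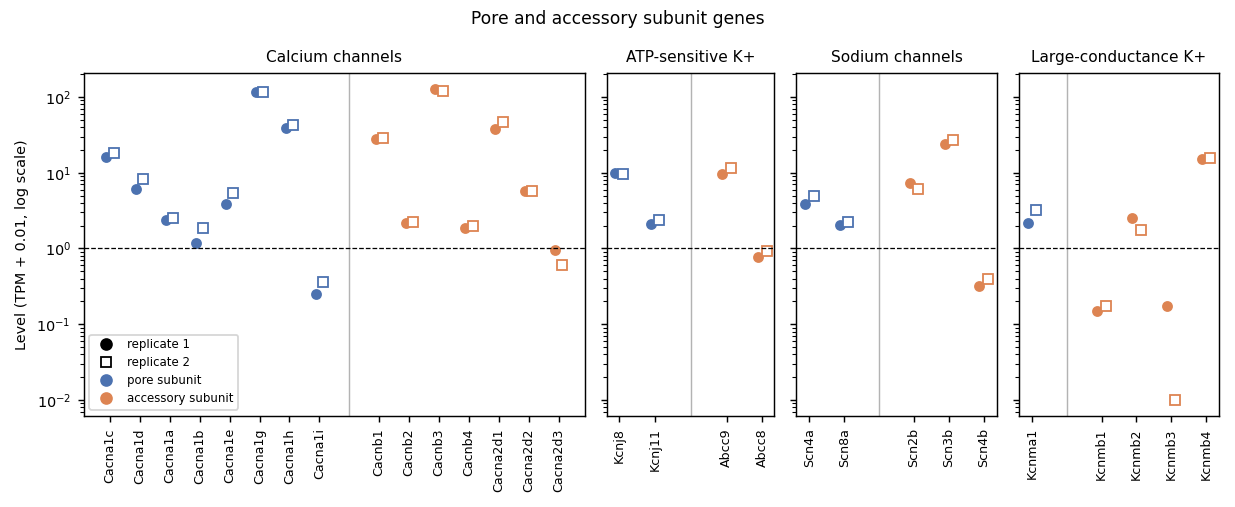
Levels (TPM + 0.01, log axis, so that 0 is drawn at 0.01) of pore genes (blue, left of each grey line) and accessory genes (orange, right) of 4 channel types, with circles for replicate 1, squares for replicate 2 and a dashed line at 1 TPM. Cacna1g and Cacnb3 are the highest, Abcc9 and Kcnj8 lie near 10 TPM, and the sodium channel genes Scn3b and Scn2b lie above Scn4a.

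Sodium channel genes showed low pore levels beside higher beta subunit levels. Among the pore genes, 2 of 9 reached 1 TPM in both libraries: Scn4a, the skeletal muscle form (chromosome 11, 106318592 to 106349389), at 3.80 and 4.96 TPM, and the neuronal form Scn8a at 2.04 and 2.20 TPM. The sensory neuron form Scn10a (1.212 and 0.6004 TPM) passed in replicate 1 only. Scn1a, Scn3a, Scn7a, Scn9a and Scn11a stood between 0.116 and 0.458 TPM on average.

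The beta genes encode single-pass proteins that modulate the pore and act in cell adhesion. Scn3b (chromosome 9, 40269216 to 40291617) stood at 23.8 and 27.0 TPM, Scn2b at 7.31 and 6.03 TPM and Scn4b at 0.310 and 0.390 TPM. Scn3b and Scn2b were each higher than every sodium pore gene in both libraries. Of other sodium channel partners, Fgf11 and Fgf13, intracellular fibroblast growth factor homologues that bind the pore subunit, stood at 37.5 ± 1.35 and 9.79 ± 0.532 TPM and Fgf12 at 3.88 ± 0.863 TPM. The ankyrin genes Ank2 and Ank3, which anchor channels to the cytoskeleton, stood at 9.75 ± 0.718 and 6.80 ± 1.16 TPM, and Nedd4l, a ubiquitin ligase gene that lowers surface sodium channels, at 16.3 ± 0.832 TPM.

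Voltage-gated potassium (Kv) pore genes were expressed in 14 of 29 cases, with 1 at 10 TPM or more in both libraries. That gene was Kcnh2, whose ERG channel repolarises the heart (chromosome 5, 24319589 to 24351604), at 13.9 and 13.3 TPM. Next came the Shaker-type gene Kcna6 at 9.71 and 12.8 TPM, and Kcna5, of the same family, stood at 8.15 and 7.18 TPM, below it in both libraries. Kcnd3, a gene of the transient A-type current, stood at 6.19 ± 0.619 TPM and Kcna1 at 6.08 ± 0.273 TPM.

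The remaining expressed Kv pore genes lay between Kcnd1 at 4.38 ± 0.325 TPM and Kcnb2 at 1.501 ± 0.429 TPM. Of the A-type Kcnd genes 3 of 3 were expressed, of the Kcna genes 4 of 8 and of the Kcnh genes 3 of 8. Kcna10 had no count in either library; a floor of 3 counts would be 0.163 TPM in replicate 1 and 0.190 TPM in replicate 2. Floors and intervals take in counting error alone, as PCR copies of a molecule were not marked. Kcna6 shares 39.6% of its exon bases with the antisense gene Gm26673, which was listed at 4.92 and 6.19 TPM, and the strand setting of the counting is not stated.

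Silent Kv subunits form no channel alone and modify the channels of other Kv subunits. Kcns3 led them at 7.74 and 4.95 TPM, followed by Kcns1 at 3.17 and 1.67 TPM, Kcnf1 at 1.498 ± 0.249 TPM and Kcng1 at 1.13 ± 0.124 TPM. The 6 others were below 1 TPM in both libraries.

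Kv accessory genes were expressed in 8 of 11 cases. Kcnip3, a calcium sensor of A-type channels, stood at 10.4 and 8.96 TPM, Kcne3, a small single-pass subunit, at 8.03 and 8.09 TPM, the cytoplasmic beta gene Kcnab2 at 6.55 and 6.36 TPM and Kcnip4 at 6.39 and 6.47 TPM. Kcne1 and Kcne2, which pair with cardiac and epithelial channels, had 1 and 4 counts over both libraries. The A-type accessory genes Dpp6 and Dpp10 stood at 4.01 ± 0.518 and 2.38 ± 0.607 TPM.

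Among the potassium channel genes outside the Kv classes, Kcnmb4 had the highest level. Among the large-conductance (Slo) genes, Kcnmb4, the neuronal beta subunit (chromosome 10, 116417861 to 116473878), stood at 15.2 and 15.5 TPM. It was 7.17 and 4.89 times as high as the pore gene Kcnma1, at 2.13 and 3.17 TPM. Kcnmb4 shares 31.5% of its exon bases with the antisense genes Kcnmb4os1 and Kcnmb4os2. Kcnma1 rests on 5041 bases of the deposited model, against 16976 exon bases in GENCODE M21. Kcnmb2 and Kcnt2 stood at 2.14 ± 0.541 and 1.70 ± 0.0426 TPM. All 4 Kcnn genes, the class named small-conductance here, were expressed. Kcnn1 was highest at 6.13 and 4.72 TPM, then Kcnn3 at 2.64 ± 0.754, Kcnn4 at 2.11 ± 0.300 and Kcnn2 at 1.17 ± 0.202 TPM.

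Inward rectifiers pass potassium more easily into the cell and hold the resting potential; 5 of 15 were expressed. Kcnj2, the Kir2.1 gene (chromosome 11, 111066164 to 111076821), stood at 11.8 and 10.7 TPM. Kcnj8, the pore gene of vascular and smooth muscle ATP-sensitive channels, stood at 10.02 and 9.49 TPM, and Kcnj11, the pore gene of the pancreatic and skeletal muscle form, at 2.11 and 2.35 TPM. The sulfonylurea receptor gene Abcc9, which lies 16.2 kb from Kcnj8, stood at 9.71 and 11.5 TPM, and Abcc8, 3.76 kb from Kcnj11, at 0.762 and 0.917 TPM. Kcnj8 and Abcc9 were thus higher than Kcnj11 and Abcc8 in both libraries. The Kcnj11 level rests on 21 and 20 counts and on 1173 bases of the deposited model, against 3677 exon bases in GENCODE M21. Kcnj14 and Kcnj12 stood at 1.14 ± 0.146 and 1.11 ± 0.00973 TPM. Kcnj1, the kidney gene, had no count, with floors of 0.108 and 0.126 TPM. Kcnj13 (0.758 ± 0.153 TPM) shares 49.1% of its exon bases with Gigyf2 on the other strand, a gene at 31.5 and 34.2 TPM.

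Two-pore-domain genes, whose channels carry background potassium current, were expressed in 6 of 14 cases, and 3 lay close together. Kcnk1 stood at 9.94 and 12.02 TPM, the acid- and volume-sensitive Kcnk5 at 10.8 and 10.4 TPM and Kcnk6 at 10.6 and 10.03 TPM. Kcnk1 was the lowest of them in replicate 1 and the highest in replicate 2, so its place among them was not fixed. Kcnk13 stood at 5.17 ± 0.131, the acid-sensitive Kcnk3 at 3.46 ± 0.213 and the stretch-sensitive Kcnk2 at 2.20 ± 0.107 TPM. Kcnk15 and Kcnk16 had no count, and their floors in the shallower library were 0.206 and 0.470 TPM.

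**Figure D3:**
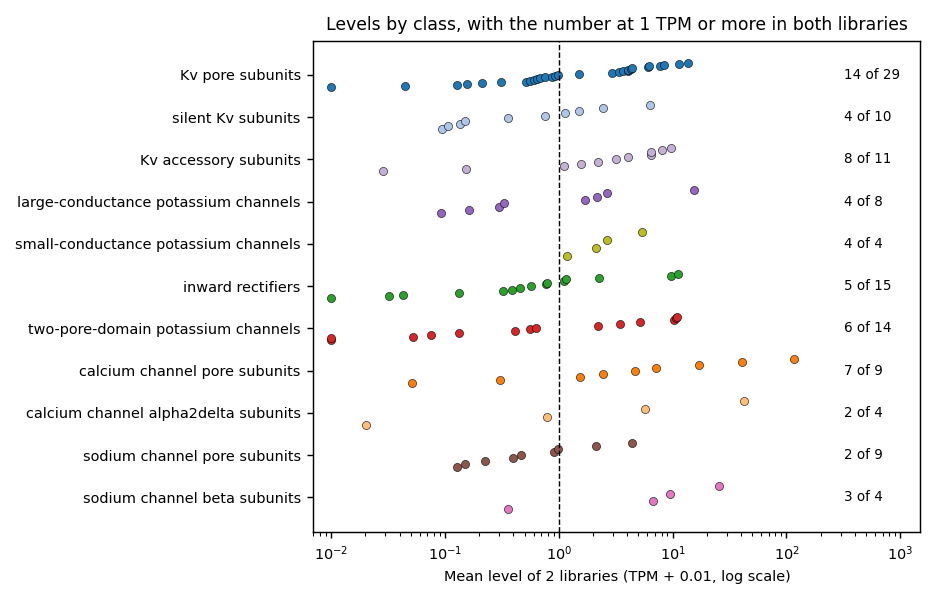
Mean level of the 2 libraries (TPM + 0.01, log axis, so that 0 is drawn at 0.01) of all 117 channel genes by class, 1 point per gene, with a dashed line at 1 TPM and the number at 1 TPM or more in both libraries at the right. Calcium channel pore genes reach highest, and sodium channel pore genes are the class with the smallest share expressed, 2 of 9.

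Members with and without an S4-like run were expressed about as often, 24 of 50 (48.0%) and 35 of 67 (52.2%), with medians of 0.948 and 1.13 TPM. Within the potassium pore genes alone the counts were 15 of 32 with a run and 20 of 44 without. These are descriptions of gene sets and carry no test.

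Of the 48 partner genes as a whole, 34 were expressed in both libraries (70.8%), against 63.0% of the protein-coding genes. Their median was 2.99 TPM, against 7.35 TPM over the protein-coding genes. Those not yet given were the endolysosomal channel genes Tpcn1 at 107 ± 0.0386 TPM and Tpcn2 at 18.7 ± 1.47 TPM, the pacemaker channel genes Hcn4 and Hcn3 at 8.66 ± 0.307 and 3.07 ± 0.0111 TPM, and the proton channel gene Hvcn1 at 25.2 ± 0.0422 TPM. Hvcn1 shares 44.2% of its exon bases with other genes. Kcnrg, Catsper2 and the large-conductance gamma genes Lrrc38 and Lrrc52 stood at 2.20 ± 0.975, 2.67 ± 0.146, 1.94 ± 0.598 and 1.55 ± 0.721 TPM.

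Some neighbouring genes had unlike levels. Members within 200 kb of each other formed 13 clusters with 30 genes, and in 6 clusters some were expressed and others not. Of the 10 clusters whose genes belong to 1 class 4 were mixed in this way, with 50.4% of all members expressed. Kcnj2 lies 38.2 kb from Kcnj16, with no coding gene between them, and Kcnj16 had 1 count in each library. Scn2b lies 8.32 kb from Scn4b, at 6.67 ± 0.905 against 0.350 ± 0.0564 TPM. Kcnk5 lies 79.6 kb from Kcnk16, which had no count, and Cacna1c 40.1 kb from Cacna2d4, which had 1. The Kcna genes form a pair of triplets. On chromosome 6, Kcna5, Kcna1 and Kcna6 were all expressed, the only cluster in which every gene was. On chromosome 3, Kcna3 was expressed at 3.83 and 4.33 TPM, whereas Kcna2 stood at 0.580 and 0.916 TPM and Kcna10 had no count. The sodium channel cluster of chromosome 2 (Scn1a, Scn9a, Scn7a) stood below 1 TPM in both libraries throughout.

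**Figure D4:**
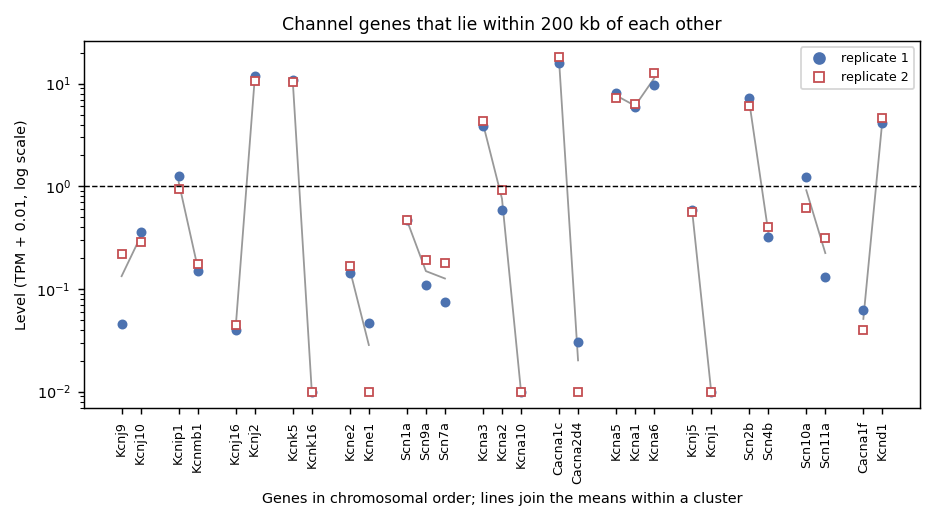
Level (TPM + 0.01, log axis, so that 0 is drawn at 0.01) of 29 of the 30 channel genes in 13 chromosomal clusters, in order along the chromosome, with circles for replicate 1, squares for replicate 2, lines joining the means and a dashed line at 1 TPM. Kcnj2, Kcnk5, Cacna1c and Scn2b lie well above the neighbour they are joined to.

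The 2 libraries were then set against each other. This comparison is between 2 pools of the same tissue, not between conditions. Of the 117 members 95 had at least 10 counts over both libraries and were tested; 22 were not. At an adjusted p under 0.05 (exact binomial test, two-sided, on counts with TMM-scaled library sizes; Benjamini-Hochberg adjusted over all 19433 genes tested), 10 members (10.5%) were higher in replicate 2, against 8.85% of all genes tested, and 6 (6.32%) were lower, against 8.65%. The share depends on the depth of the genes set beside it, since channel genes had a median of 135 counts and all genes tested 721. Between 45.5 and 422.5 counts, 6 of 47 channel genes were higher (12.8%) and 6 lower (12.8%), against 5.23% and 3.91% of 2942 protein-coding genes in that range. This count range was chosen from the members' own counts, and the difference in shares was not tested. The median log2 ratio of replicate 2 to replicate 1 was 0.014 over members and -0.014 over all genes tested. By 2-fold or more, 2 members were higher (background 0.710%) and 1 lower (0.551%).

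The genes higher in replicate 2 included the calcium channel genes Cacna2d1, Cacna1d, Cacna1e and Cacna1b, the Kv genes Kcna6, Kcnc2 and Kcnq5, and Kcnma1, the pore gene of BK channels. Kcnc2 had 19 and 44 counts, a log2 ratio of 1.37 (95% exact interval 0.59 to 2.25, exact binomial adjusted p = 0.00348). It stood below 1 TPM in each library. Cacna2d1 had the smallest of these differences, a log2 ratio of 0.26 (0.18 to 0.34, exact binomial adjusted p = 1.28e-08), on 2405 and 2532 counts. Kcna6 had 489 and 553 counts (log2 ratio 0.36), Cacna1d 483 and 551 (0.37) and Cacna1e 416 and 503 (0.46). A gene with fewer counts passes this test only at a larger ratio, so larger ratios among called genes with fewer counts follow from selection. Kcnma1 had 91 and 116 counts (log2 ratio 0.53), Kcnq5 172 and 227 (0.58) and Cacna1b 100 and 133 (0.59).

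Lower in replicate 2 were, among others, Scn10a, Kcnd2, Kcns1, Kcns3 and Kcnn1. Kcnd2, an A-type channel gene, had 208 and 93 counts, or 4.76 and 2.48 TPM, a log2 ratio of -0.97 (-1.35 to -0.62, exact binomial adjusted p = 6.68e-07). Scn10a had 66 and 28 counts, a ratio of -1.04 (-1.75 to -0.39, exact binomial adjusted p = 0.00804). Kcns1 had 73 and 33 counts (log2 ratio -0.95) and Kcns3 had 201 and 110 (-0.68). Kcnn1 had 211 and 139 counts (-0.42), the smallest of the 6 differences.

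Counting error is the smallest noise such libraries can have. With the spread that edgeR estimated between the libraries added (exactTest at the common dispersion, a coefficient of variation of 7.99%), 2 of the 16 calls were left, 1 higher and 1 lower, the latter Kcnd2 (edgeR adjusted p = 0.0111), against a background of 0.417% higher and 0.334% lower. Of 5797 protein-coding genes of at least 4360 bases, the median member length, 20.6% were higher and 6.26% lower. Of the 10 members higher in replicate 2, 9 were at least that long, and of the 6 lower, 2 were. These are shares of the called members, not of the members of that length, so they cannot be set against 20.6% and 6.26%. By the binomial test, 8 of 12 neuronal markers were higher in replicate 2 and 0 lower, and 7 of 8 hepatoblast markers were higher and 0 lower. Of 7 nephric and gonad markers 6 were lower and 0 higher. Other lists had higher calls too, such as sympathetic and crest (3 of 6), endothelium (3 of 6) and skeletal muscle (3 of 10). Endothelium and skeletal muscle also had 1 lower call each. Over all genes tested, 8.85% were higher and 8.65% lower. The part of gene length or of RNA from any of these cell types in the differences of single channel genes was not tested.

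**Figure D5:**
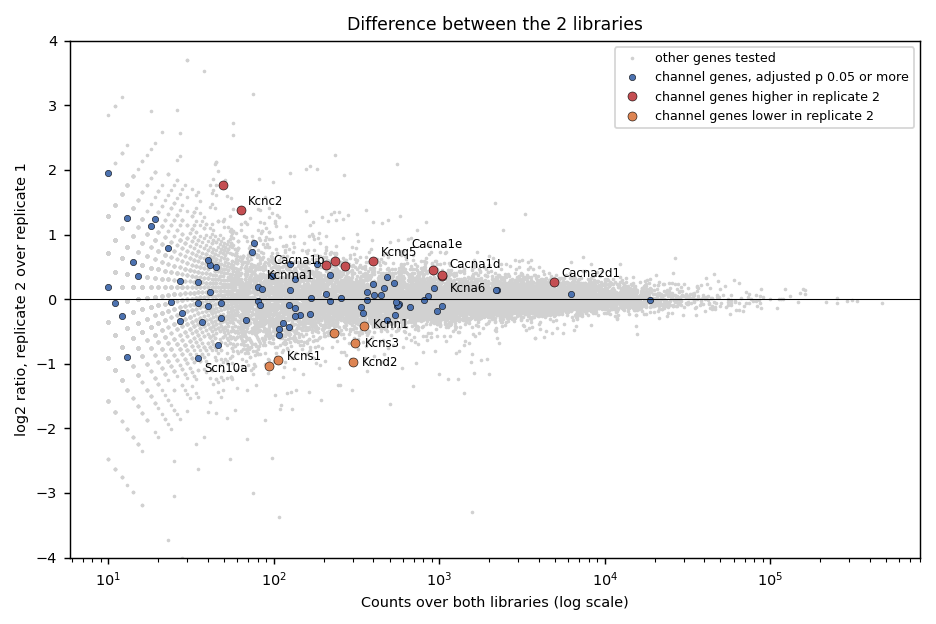
Log2 ratio of replicate 2 to replicate 1 (vertical axis) against counts over both libraries (log axis) for 19433 genes tested, with 95 channel genes in colour and most of those past an adjusted p of 0.05 named. The 10 higher genes are red and the 6 lower ones orange, and Cacna1g, the channel gene with the most counts, lies near 0, which marks equal levels.

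Among the partner genes, 5 of 41 tested were higher in replicate 2 (Gem, Cacng6, Ank3, Cacng7 and Ank2) and 2 lower (Stac2 and Cacnb3), none by 2-fold. These are 12.2% and 4.88%, beside 8.85% and 8.65% of all genes tested. With edgeR's exactTest 0 of the 41 passed (smallest adjusted p = 0.229), and 2 had an unadjusted p under 0.05. The largest in size were Gem, at a log2 ratio of 0.76, and Stac2, at -0.57.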

How the data were processed

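RNA from 2 libraries of wild-type PPFs (stranded kit with poly(A) selection, per the labels' protocols) was analysed. The tools listed in the submitters' processing notes are featureCounts, SAMtools 1.3 and STAR 2.4.0a, and the build listed is mm9; their settings, strand included, are not given in these sources. Per the file headers, the deposited tables hold a raw count per gene, which the authors left unnormalised, and the authors' TPM. The deposited TPM equalled count over gene length, rescaled, within 4.73e-11. Deposited coordinates are printed as given. In 82 of 117 members the deposited start or end equals that of GENCODE M21 (GRCm38), so they are read as GRCm38. All 117 symbols matched GENCODE. Protein-coding genes are symbols so typed in GENCODE or RefSeq.

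The member rule reads symbols only, but it, the lists and the tests were chosen with earlier results of these data known. Genes named are members with a mean of 5 TPM or more, the 3 highest of each class, members past the test, those with 0 counts, and partner genes at 1 TPM or more in both libraries; the other members named were chosen after their values were seen. A few genes that this rule takes in are not reported here, though counts include them. Ratios used counts plus 0.5, scaled by edgeR 4.0.16 TMM factors. With 1 group, no model across groups could be fitted, so an exact binomial test compared the 2 libraries, with Benjamini-Hochberg adjustment. DESeq2 1.42.0 gave size factors for an alternative. Intervals for ratios are exact Clopper-Pearson at 95%. The binomial test with its adjustment was also run on simulated counts, which held counting error alone and no spread between libraries. That run used total counts in place of TMM and larger changes than most called members had. It therefore cannot show how well the reported calls hold.

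Coding sequences are the longest per gene in GENCODE M21. Protein sequences were not used here, so codons were searched in place of the planned proteins. The planned promoter description is void: 85 of 117 members (72.6%) had an entry in the RefSeq promoter table, under the minimum of 80%.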

Additional observations from a re-analysis of the deposited data

How the results depend on the processing

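With 2 libraries of 1 group, the counts limit what can be called: 22 of 117 members had too few counts to test. No paired analysis was possible because there is 1 group. The count of expressed members stayed within 1.5 times under each alternative run, as did the counts of higher and lower members under total counts, DESeq2 size factors, no filter and a minimum of 50 counts. At 5 and 20 TPM, 26 and 4 members passed in place of 10 at 10 TPM. At 2 TPM, the silent Kv, large-conductance, small-conductance and inward rectifier classes had 1, 2, 2 and 3 expressed genes in place of 4, 4, 4 and 5. At 0.5 TPM, inward rectifiers had 8 and sodium pore genes 4, in place of 5 and 2. Leaving out a replicate gave 2 to 4 expressed sodium pore genes (4 without replicate 2, Scn10a among them). The median level was 1.24 TPM without features shorter than 200 bp, 4.38 TPM over expressed members only, and 1.11 to 1.12 TPM with a replicate left out. With edgeR's exactTest, 1 member was higher and 1 lower, and 1 higher and 0 lower by 2-fold; the added spread between libraries makes that test stricter by construction. Its use for the ratios of single genes was chosen after seeing the data. With at least 50 counts, 1 member was higher by 2-fold. The median log2 ratio of members stayed between 0.011 and 0.019 under the other scalings, prior count and filter. Kcnma1 missed the threshold with total counts and Kcnn1 with DESeq2 size factors. No log2 ratio of a called member changed sign.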

Other observations

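A pair of channel genes stand in the files under symbols that the naming rule does not match. Kcne1l, a relative of the small single-pass Kcne subunits on chromosome X, stood at 32.5 and 35.4 TPM (34.0 ± 2.02 TPM, SD, n = 2). That is above each of the 11 Kv accessory members, of which the highest was Kcnip3 at 9.67 ± 0.996 TPM. Scn2a1, the symbol in these files for the brain sodium channel pore gene Scn2a, stood at 1.22 and 1.26 TPM, above Scn1a in both libraries.

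For 13 members the exons annotated in GENCODE M21 cover at least 2 times the bases of the deposited gene model, so counts and length rest on part of the gene. The largest gaps, as a ratio, were those of Kcnk9 (1209 against 12300 bases), Kcnk10 (2533 against 8774), Kcna2 (3456 against 11906) and Kcnn3 (3080 against 10451). Levels on the longer models were not computed.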
